A study of Mus musculus with 4 samples.

Results

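The genes of the mouse chemokines and of their receptors were examined for H3K9me3, the trimethylated lysine 9 of histone H3 that marks heterochromatin, in CD8+ T cells. The members were the protein-coding genes whose symbol begins with Ccr, Cxcr, Cx3cr, Xcr, Ackr, Ccl, Cxcl, Cx3cl or Xcl followed by a digit, without Ccr6 and Ccr7. They numbered 60 of 21887 protein-coding genes, with 39 ligand genes and 21 receptor genes. Ccl21c stands on a sequence that is not placed on a chromosome, so 59 members (38 ligands and 21 receptors) of 21779 placed genes could be set against the data. Native chromatin immunoprecipitation, which uses chromatin cut with micrococcal nuclease and not cross-linked, had been applied to wild-type C57BL/6 cells cultured for 3 days (day 3) in medium that held anti-CD3, anti-CD28 and interleukin-2 (IL-2), and to naive cells (day 0). There was 1 ChIP library per day, both made with 1 batch of antibody, and the labels do not say how many mice gave the cells. No test between days was possible, and every difference below is a difference between 2 libraries without a replicate check. Each library is a bulk population, so a change in the number of cells that carry the mark and a change in the mark per cell cannot be told apart.

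The data are the authors' lists of islands, which are runs of enriched windows merged into regions, on the mm10 build. There were 47553 islands with 10423178 reads in all on day 3, against 19989 with 3402787 reads on day 0. Read density went down to 34.1 reads per kb in the day 3 islands and to 23.6 in those of day 0, so an island listed on day 0 alone does not show that the mark was lost. The lack of an island says only that no region passed the authors' threshold. Among 9 marker genes of CD8 T cells, no body held an island on day 3 and that of Cd5 did on day 0. Of 15 marker genes of other blood cells, the bodies of 3 did on day 3 and of 3 on day 0. The shares over all protein-coding genes were 27.2% on day 3 and 22.8% on day 0. Islands do not measure expression, so these values do not check the cell type.

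Chemokines are small secreted proteins that set the direction in which leukocytes move. They bind receptors with 7 membrane spans on the moving cell, most of which signal through inhibitory G proteins, while atypical receptors take up chemokines without that signal. Naive T cells are held in lymph nodes by homeostatic ligands made by stromal cells. After activation, CD8+ T cells change their set of receptors to enter inflamed tissue, and they secrete chemokines such as Ccl3, Ccl4, Ccl5 and Xcl1.

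The promoter windows that lay inside an island are shown, as the places where the mark met a start that the promoter table lists for a member. The RefSeq promoter table (GRCm38.p6) held 52 windows for 46 of the 59 members, each running from 250 bases before to 50 bases after a start. On day 3, 5 of the 52 windows lay in an island, which is 9.62%, against 2.82% of the windows of all protein-coding genes. On day 0, 1 window did, which is 1.92%, against 1.79%. The 5 windows on day 3 were those of the ligands Ccl8 and Cxcl9 and of the receptors Xcr1, Ccr3 and Ccr2, and the 1 on day 0 was that of the ligand Cxcl13. Each of these 6 windows lay wholly inside its island on that day and outside every island on the other. Capitals mark the letters TATAAA, a core promoter element, and GGGNNNTTCC, a form of the site of the inflammatory transcription factor NF-kB, on either strand. The windows are Ccl8 at chr11:82114935-82115234 on the plus strand, Cxcl9 at chr5:92328030-92328329 on the minus strand, Xcr1 at chr9:123861980-123862279 on the minus strand, Ccr3 at chr9:124021721-124022020 on the plus strand, Ccr2 at chr9:124101933-124102232 on the plus strand and Cxcl13 at chr5:95956689-95956988 on the plus strand, each printed 5′ to 3′ along its gene.
Ccl8: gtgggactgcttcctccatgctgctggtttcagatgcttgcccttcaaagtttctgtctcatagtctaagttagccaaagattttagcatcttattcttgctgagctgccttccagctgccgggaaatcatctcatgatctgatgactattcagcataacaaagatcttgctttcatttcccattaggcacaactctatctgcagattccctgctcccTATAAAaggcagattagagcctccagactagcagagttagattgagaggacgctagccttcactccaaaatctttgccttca
Cxcl9: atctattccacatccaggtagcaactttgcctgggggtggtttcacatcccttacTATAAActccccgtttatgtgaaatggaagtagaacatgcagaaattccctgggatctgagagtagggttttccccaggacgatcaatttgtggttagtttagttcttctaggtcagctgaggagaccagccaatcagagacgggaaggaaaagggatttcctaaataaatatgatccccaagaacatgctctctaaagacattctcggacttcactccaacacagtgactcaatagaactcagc
Xcr1: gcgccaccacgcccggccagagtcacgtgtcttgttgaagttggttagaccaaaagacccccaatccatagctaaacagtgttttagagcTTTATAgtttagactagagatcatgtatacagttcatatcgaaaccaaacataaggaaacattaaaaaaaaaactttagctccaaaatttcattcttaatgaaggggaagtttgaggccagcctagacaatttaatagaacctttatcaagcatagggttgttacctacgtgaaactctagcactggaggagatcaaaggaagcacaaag
Ccr3: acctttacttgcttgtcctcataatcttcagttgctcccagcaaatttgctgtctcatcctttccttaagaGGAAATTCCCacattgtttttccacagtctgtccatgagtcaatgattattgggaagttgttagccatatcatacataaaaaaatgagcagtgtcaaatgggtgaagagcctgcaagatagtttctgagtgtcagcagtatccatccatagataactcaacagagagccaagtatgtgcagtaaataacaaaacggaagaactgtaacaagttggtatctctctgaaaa
Ccr2: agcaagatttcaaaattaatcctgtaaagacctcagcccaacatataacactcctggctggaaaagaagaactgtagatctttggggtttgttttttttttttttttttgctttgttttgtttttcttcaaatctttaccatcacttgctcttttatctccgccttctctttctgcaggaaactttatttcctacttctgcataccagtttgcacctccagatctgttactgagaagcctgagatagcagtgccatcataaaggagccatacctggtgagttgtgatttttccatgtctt
Cxcl13: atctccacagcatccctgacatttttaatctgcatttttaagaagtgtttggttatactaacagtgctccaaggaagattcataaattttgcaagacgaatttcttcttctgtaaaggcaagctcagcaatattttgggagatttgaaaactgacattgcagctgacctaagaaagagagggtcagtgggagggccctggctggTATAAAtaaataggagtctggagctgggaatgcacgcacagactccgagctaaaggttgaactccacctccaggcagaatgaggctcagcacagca

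TATAAA was found in 4 of these windows (Ccl8, Cxcl9, Xcr1 and Cxcl13), in 28.8% of the windows of members and in 12.6% of those of all protein-coding genes. GGGNNNTTCC was found in Ccr3 alone of the 6, in 15.4% of the windows of members and in 5.77% of those of all protein-coding genes. Matches were counted at any distance from the start, and that of Xcr1 is on the other strand (TTTATA). A match describes letters and is no evidence of binding or of a working element. The 6 windows held 1 to 6 CpG dinucleotides, against a median of 4 over the windows of members and 13 over those of all protein-coding genes. The printed windows of Ccr3 and Ccr2 lie inside the RefSeq bodies of those genes, whose left ends are at 124017825 and 124101918. The left end of Ccr3 itself lay in an island on day 0 and not on day 3. Exon and intron positions were not used here.

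Few members carried an island in the gene itself. On day 3, 6 of 59 did, which is 10.2%, against 27.2% of all protein-coding genes. On day 0, 4 of 59 did, which is 6.78%, against 22.8%. Members are short, with a median body of 5.2 kb against 17.2 kb over all genes. Among the 43 members with bodies of at most 10 kb, 4 (9.30%) carried an island on day 3 and 2 (4.65%) on day 0. Of the 7861 protein-coding genes of that size, 6.20% did on day 3 and 3.46% on day 0. Of the members of that size, 2 of 31 ligands (6.45%) and 2 of 12 receptors (16.7%) did on day 3, and 1 ligand (3.23%) and 1 receptor (8.33%) on day 0. Only Ccr3 carried an island on both days, Ccl8, Ccl28, Cxcl9, Xcr1 and Ccr2 did on day 3 alone, and Cxcl13, Ccl25 and Ccr1 on day 0 alone. Over all protein-coding genes, 16% carried one on both days, 11.2% on day 3 alone and 6.78% on day 0 alone. No island lay in the body of 50 members (84.7%) on either day, against 66% of all protein-coding genes.

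Few ligand or receptor genes were marked in their bodies, and a larger share of ligands than of receptors had an island within 50 kb on day 3. On day 3, 3 of 38 ligands (7.89%) and 3 of 21 receptors (14.3%) carried an island in the body. On day 0, 2 ligands (5.26%) and 2 receptors (9.52%) did. Bodies were shorter in ligands, with a median of 4 kb against 7.25 kb in receptors. With flanks of 50 kb on each side, 27 ligands (71.1%) and 10 receptors (47.6%) had an island on day 3, against 56.7% of all protein-coding genes. On day 0, 20 ligands (52.6%) and 10 receptors (47.6%) had one, against 53.9%. Of the members with bodies of at most 10 kb, 28 of 43 (65.1%) had one on day 3, against 46.3% of all genes of that size, and 23 (53.5%) on day 0, against 39.9%. An island on both days was found near 23 members (background 41.7%), on day 3 alone near 14 (15%), on day 0 alone near 7 (12.2%) and on neither day near 15 (31.1%). More kb were covered on day 3 in 25 members (42.4%, background 40.5%) and on day 0 in 19 (32.2%, background 28%). The difference between ligands and receptors on day 3 was not tested, since neighbours share islands. It turned with wider flanks and with the density of the islands counted. On day 3, flanks of 100 kb gave 29 of 38 ligands and 17 of 21 receptors with an island, and flanks of 20 kb gave 12 and 6. With islands of at least the median density of their list, 11 of 38 ligands and 10 of 21 receptors were left on day 3.

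**Figure D1:**
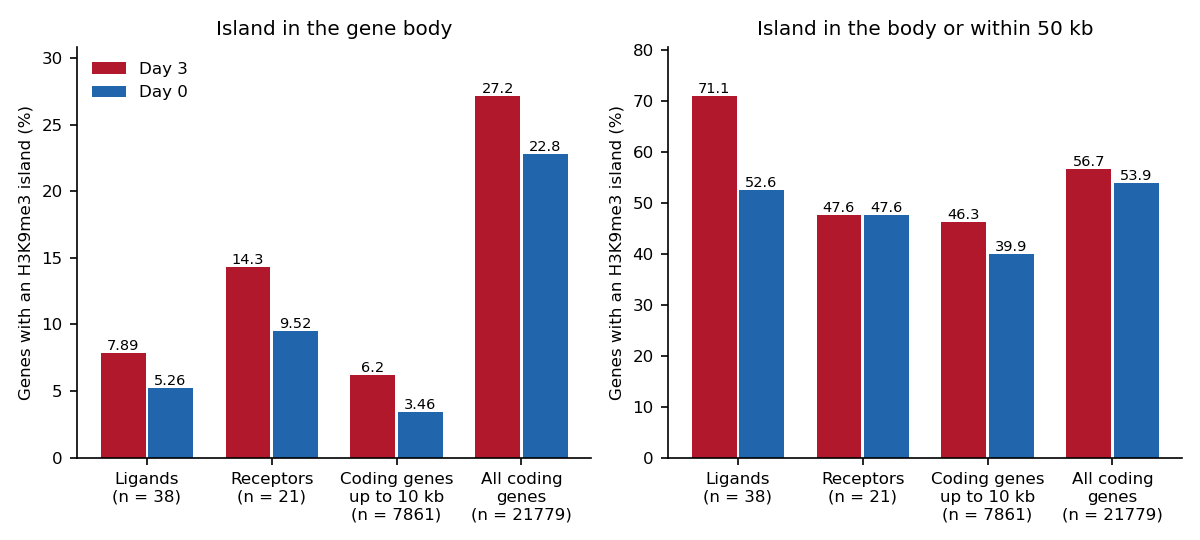
Percentage of genes with an H3K9me3 island in the body (left) and in the body or within 50 kb (right), for ligands, receptors, protein-coding genes of at most 10 kb and all protein-coding genes, on day 3 (red) and day 0 (blue), 1 library each. In the body the ligands (7.89%) and receptors (14.3%) stand under all genes (27.2%) on day 3, and above genes of at most 10 kb (6.20%). Members are shorter than all genes, but the ligand and receptor bars include bodies of over 10 kb. Within 50 kb ligands reach 71.1% on day 3.

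The members fall into 30 separate stretches of the genome when neighbours with starts under 200 kb apart are joined, 18 of ligands and 12 of receptors. Counted by stretch with 50 kb flanks, islands were present in 12 of the 18 ligand stretches on day 3 and in 10 on day 0. For receptors, they were present in 4 of 12 on day 3 and in 5 on day 0. Each base counted once, islands covered 3.73% of the ligand stretches and 2.99% of the receptor stretches on day 3, against 8.07% of the autosomes. On day 0 they covered 3.39% and 2.67%, against 4.08%. The autosome share counts all sequence, with or without genes, and the receptor stretches include that of Cxcr3 on chromosome X. Taken by gene, islands covered on average 4.43% of the 50 kb flanks of members on day 3, against 5.11% over all protein-coding genes. On day 0 these means were 3.91% and 3.69%. With the full lists, coverage over all 30 stretches was nearly level, with 156.4 kb on day 3 and 141 kb on day 0. The day 3 list as a whole covered 198.6 Mb and the day 0 list 100.5 Mb. Of the 32 day 0 islands near members, 15 were less dense than every day 3 island. Without islands below that density, day 0 coverage at Ccl5 to Ccl4 fell from 16 to 3.6 kb. With the 19989 day 3 islands richest in reads, day 3 coverage at Ccl2 to Ccl1 fell from 16 to 3.6 kb. The total was not computed under these selections, so its level depends on the lists used. More bases were covered on day 3 in 11 stretches and on day 0 in 10, and 9 had no island on either day. The islands mostly lay in different places on the 2 days. Of the covered bases, 24.4 kb were common to both days, which is 15.6% of the day 3 bases and 17.3% of the day 0 bases. Over the whole lists these shares were 10.7% and 21.2%.

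**Figure D2:**
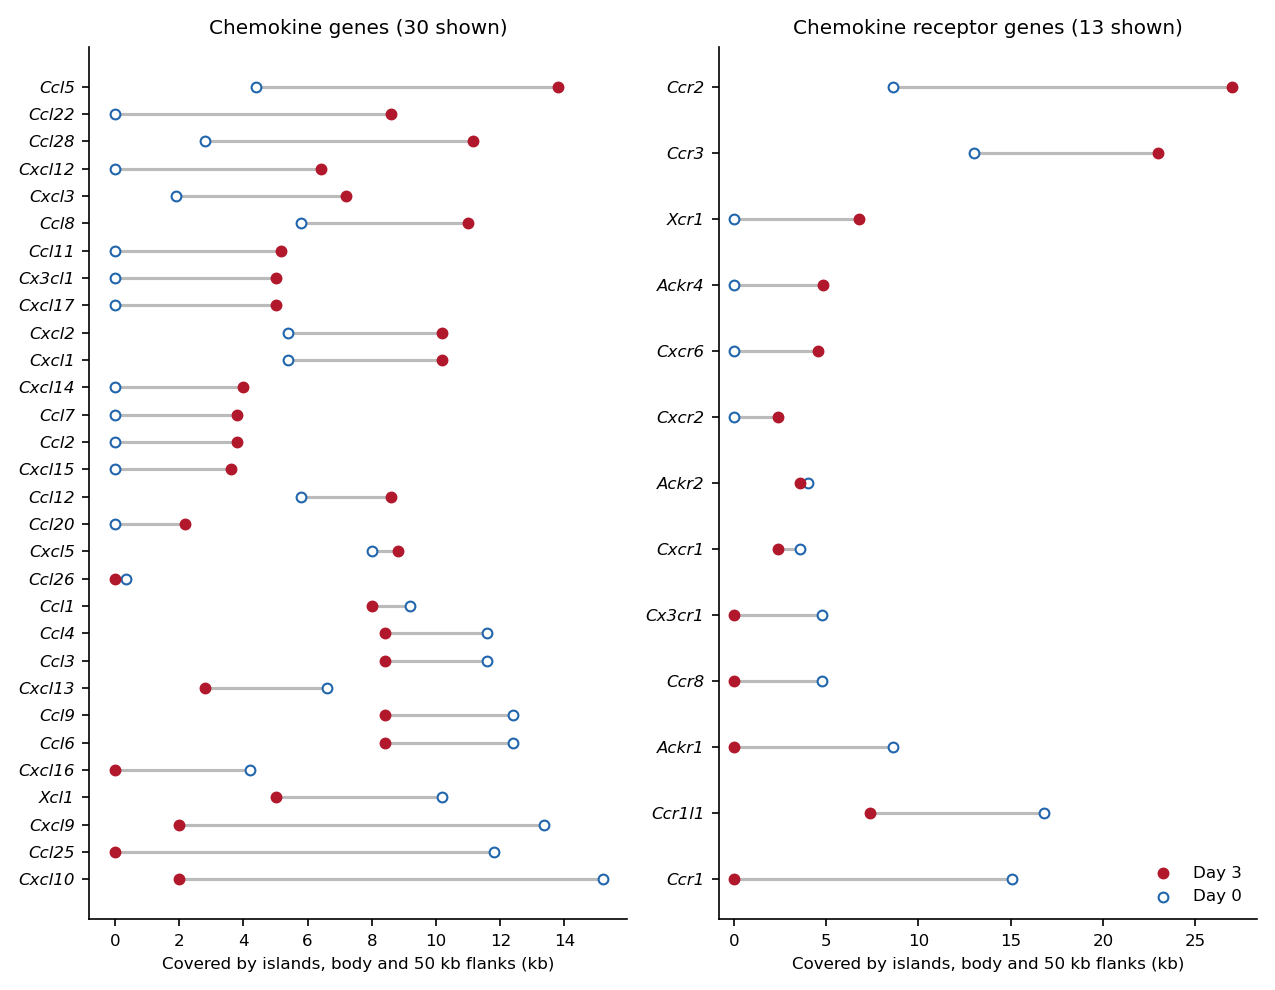
Kilobases covered by islands in the body and 50 kb flanks of the ligand genes (left) and receptor genes (right) shown, which have an island on either day, on day 3 (filled red) and day 0 (open blue), ordered by the difference. Ccr2 (27 kb on day 3, against 8.6 kb on day 0) and Ccr1 (0 kb, against 15.1 kb) stand at opposite ends of the receptors although both lie in 1 cluster.

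The receptor cluster of chromosome 9 held all 4 receptors with an island in the body on either day. It runs from Ccr9, Cxcr6 and Xcr1 over Ccr1 and Ccr1l1 to Ccr3 and Ccr2. With its flanks, islands covered 41.2 kb on day 3 (8 islands), against 25.4 kb on day 0 (6 islands). This is 8.96% on day 3 against 7.90% of the whole chromosome, and 5.52% on day 0 against 4.45%. The side with Ccr1 and Ccr1l1 had its islands on day 0, and the sides with Xcr1 and with Ccr3 and Ccr2 had most of theirs on day 3.

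Ccr3, the eotaxin receptor of eosinophils, had the longest covered stretch of any member's body on day 3. On that day 1 island covered 7.4 kb, or 53.4%, of the gene (124021201 to 124028600) with 489 reads (exact 95% Poisson interval 447 to 534, counting error only). On day 0 another covered 2.58 kb, or 18.6% (124016601 to 124020400) with 139 reads (117 to 164). The 2 islands did not overlap, and the day 0 island stood at the left end of the gene, 1.32 kb from the printed promoter window. The day 3 island held 66.1 reads per kb and stood at percentile 94.3 of the day 3 list by density. The body of Ccr3 stayed marked on both days under the 3 other selections of islands by reads and density, and with islands of at least 5000 bp it held none on day 0.

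Ccr2, the receptor of monocyte chemoattractant proteins, had 2.28 kb of its body covered on day 3 and none on day 0. The day 3 island (124097201 to 124104200) held 361 reads (325 to 400) over 7 kb. A day 0 island (124097001 to 124101800, 177 reads, 152 to 205) began at nearly the same place and ended 0.118 kb short of the gene. The islands of both days therefore overlap just upstream of Ccr2, and the day 3 one reached further, over the left part of the gene. The printed window of Ccr2 lies in that left part, and not in the sequence before the gene. The densities were 51.6 reads per kb on day 3, against 36.9 on day 0, uncorrected for depth. With islands of at least the median density of their list, the body of Ccr2 held none on either day. Around Ccr2, 5 islands covered 27 kb within 50 kb on day 3, against 2 islands and 8.6 kb on day 0.

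Xcr1, the receptor of the ligand Xcl1 on cross-presenting dendritic cells, had 1.43 kb or 14.7% of its body covered on day 3 and none on day 0. The day 3 island (123860601 to 123864000, 197 reads, 170 to 227) lay over its start. The nearest day 0 island was 81 kb away. Both day 3 islands near Xcr1, which are also those counted for Cxcr6, were lost when only the 19989 day 3 islands richest in reads were used.

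Ccr1, an inflammatory receptor for Ccl3 and Ccl5, was the reverse case, with no island within 50 kb on day 3 and 3.6 kb or 54.8% of its body covered on day 0. The day 0 island (123962201 to 123965800) held 126 reads (105 to 150), or 35 reads per kb. Ccr1l1, a close relative of Ccr1, had no island in its body on either day, and a day 0 island ended 0.03 kb from it. Within 50 kb, Ccr1 had 0 kb covered on day 3 and 15.1 kb on day 0, and Ccr1l1 had 7.4 kb and 16.8 kb. With islands at least as dense as the least dense day 3 island the day 3 minus day 0 difference was -11.1 kb for Ccr1 and -5.4 kb for Ccr1l1.

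**Figure D3:**
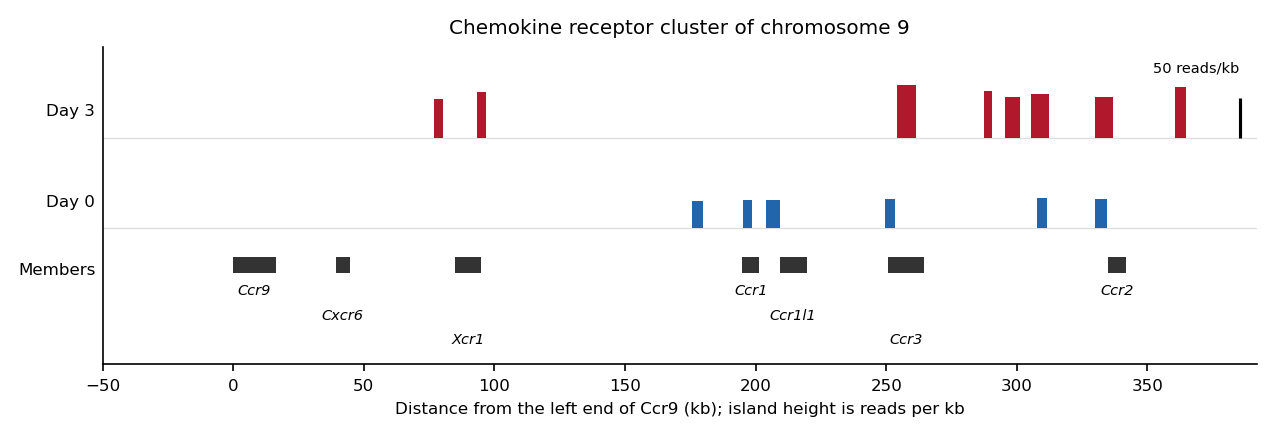
Islands of day 3 (red) and day 0 (blue) over the chemokine receptor cluster of chromosome 9, with the members described as black boxes. The x axis is the distance from the left end of Ccr9 in kb, the height of an island is its reads per kb, uncorrected for depth, and the bar shows 50 reads per kb (for scale). Day 0 islands stand at Ccr1 and Ccr1l1, where day 3 has none, and 6 of the 8 day 3 islands stand at Ccr3 or to its right.

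The other receptors were free of islands in their bodies on both days. Cx3cr1, the fractalkine receptor of cytotoxic effector cells, and its neighbour Ccr8, a receptor for Ccl1, shared 1 day 0 island of 4.8 kb with 156 reads (132 to 182). It lay 1.13 kb from Ccr8 and 17.9 kb from Cx3cr1, and on day 3 their nearest islands were 50.3 kb and 76.9 kb away. At 32.5 reads per kb this island was less dense than any day 3 island, and it was lost in both selections by density. The neutrophil receptors Cxcr2 and Cxcr1 had 2.4 kb covered within 50 kb on day 3, by 1 island 3.16 kb from Cxcr2. On day 0 only Cxcr1 had an island in reach, with 3.6 kb.

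Several homing receptors of T cells had no island within 50 kb on either day. Over all protein-coding genes the median distance to an island was 31.9 kb on day 3 and 41.3 kb on day 0, with upper quartiles of 161.2 kb and 139.2 kb, so Cxcr4, Cxcr5 and Ccr9 lay within the usual range. Cxcr4, the receptor of Cxcl12, had its nearest island at 51.9 kb on day 3 and 57.5 kb on day 0. For Cxcr5, which guides cells to B cell follicles, the distances were 85.4 kb and 94.8 kb. For Ccr9, the gut homing receptor, they were 51.4 kb and 71.8 kb. Ccr4, a skin homing receptor, was 521.5 kb from an island on day 3 and 171.7 kb on day 0, and Ccr10 was 239 kb and 129.2 kb away. Cxcr3, the receptor of Cxcl9 and Cxcl10 on effector CD8+ T cells, lies on chromosome X, where the lists hold 3 islands on day 3 and 1 on day 0, so no reading of that gene was possible. Of 11 homing receptors of T cells, Ccr2 alone had an island in the body, on day 3, against 27.2% of all protein-coding genes on day 3 and 22.8% on day 0. Within 50 kb 3 of the 11 did on day 3, against 56.7%, and 4 on day 0, against 53.9%. The 11 include Cxcr3, and most have bodies of at most 10 kb. Of all protein-coding genes of that size, 6.20% had a body island on day 3 and 3.46% on day 0. Within 50 kb, 46.3% and 39.9% of them had one.

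Of the 4 atypical receptors, none had an island in the body on either day, against 66% of all protein-coding genes without one. Ackr1, the Duffy antigen, had none within 50 kb on day 3 and 2 islands with 8.6 kb on day 0, which overlap the neighbouring genes Cadm3 and Aim2. Ackr2, a scavenger of inflammatory CC chemokines, had 3.6 kb covered on day 3 and 4 kb on day 0. Ackr4, which takes up Ccl19 and Ccl21, had 4.84 kb on day 3 and none on day 0, and none on either day with the 19989 day 3 islands richest in reads. Ackr3 had none on either day, with distances of 364.1 kb and 187.9 kb.

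Among the ligands, the pair Cxcl9 and Cxcl10 on chromosome 5 (92321331 to 92348889) showed the largest excess of day 0. Both are made by many cells in answer to interferon gamma and draw Cxcr3-bearing T cells. With flanks, 2 kb in 1 island were covered on day 3, which is 1.57%, against 20.1 kb in 5 islands or 15.7% on day 0. The day 3 island (92326401 to 92328400, 121 reads, 100 to 145) covered the start and 24.9% of the body of Cxcl9, and was not among the 19989 day 3 islands richest in reads. None of the 5 day 0 islands touched either gene. The closest (92335601 to 92337600, 94 reads, 76 to 115) lay 7.52 kb upstream of Cxcl9 and overlapped Art3, 2 more overlapped Art3, 1 Sdad1 and 1 Naaa. The excess of day 0 was present in each of the 4 other selections of islands, among them islands at least as dense as the least dense day 3 island, with 2 kb on day 3 and 10.2 kb on day 0.

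Cxcl13, a homeostatic ligand made by stromal cells of B cell follicles, was the one member whose whole body lay in an island. On day 3 its body was free and the nearest island (152 reads, 129 to 178) stood 33.3 kb upstream. On day 0 the island (95956601 to 95963200) held 198 reads (171 to 228) over 6.6 kb, and covered all 4.13 kb of the gene and the printed promoter. At 30.0 reads per kb it was less dense than any day 3 island, and it stood at percentile 9.73 of its own list. The same density was measured in Ccl25, the thymus and gut ligand of Ccr9. Ccl25 had no island within 50 kb on day 3 and 11.8 kb on day 0, with 5.2 kb or 14.9% of its body in 1 island of 156 reads (132 to 182). Both day 0 body calls were absent when islands below the least dense day 3 island were left out.

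Ccl28, a mucosal ligand of Ccr10 and Ccr3, had 7.2 kb or 23.6% of its body covered on day 3 and none on day 0. The 2 day 3 islands in the body held 169 (144 to 196) and 177 reads (152 to 205), at 46.9 and 49.2 reads per kb, both below the list's median of 52.9, and neither was among the 19989 day 3 islands richest in reads, with which the difference within 50 kb turned to -2.8 kb. On day 0 the nearest island lay 12.2 kb upstream in Tmem267, with 326 reads (292 to 363) over 2.8 kb. At 116.4 reads per kb it was the densest of all islands near members and stood at percentile 99.99 of its list. Whether duplicated sequence adds to the reads of this island was not tested, so its density is uncertain. Other homeostatic ligands had islands in their surroundings on 1 day. Cxcl12, the ligand of Cxcr4, had 6.4 kb covered on day 3 and none on day 0, Cxcl14 had 4 kb and none, and Cxcl16, the ligand of Cxcr6, had none and 4.2 kb. With the 19989 day 3 islands richest in reads no difference was left for Cxcl12 and Cxcl14, and at the median density none was left for Cxcl14 and Cxcl16. With islands at least as dense as the least dense day 3 island none was left for Cxcl16.

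The first CC ligand cluster of chromosome 11 (82035577 to 82179812) holds Ccl2, Ccl7, Ccl11, Ccl12, Ccl8 and Ccl1, most of which draw monocytes or eosinophils through Ccr2 and Ccr3. With flanks, 16 kb were covered on day 3 and 9.2 kb on day 0, which is 6.55% and 3.77%. Ccl8 had 0.616 kb or 38.1% of its short body in a day 3 island (82111601 to 82115800) with 168 reads (144 to 195). At 40 reads per kb this island stood at percentile 0.345 of the day 3 list by density. The order of the days turned when only the 19989 day 3 islands richest in reads were used, with 3.6 kb on day 3 and 9.2 kb on day 0. It turned at the same values with islands of at least the median density of their list. With islands of at least 5000 bp the values were 0 kb and 5.8 kb. The island in Ccl8 was lost in each of these selections.

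The second cluster (83525778 to 83664683) holds Ccl5, Ccl9, Ccl6, Ccl3 and Ccl4, among them the chemokines that activated CD8+ T cells secrete. None of the 5 had an island in its body on either day. Between Ccl6 and Ccl3 an island was listed on both days, with 391 reads (353 to 432) over 8.4 kb on day 3 and 249 reads (219 to 282) over 8 kb on day 0. It overlaps the lncRNA gene E230016K23Rik, 22.7 kb from Ccl6 on day 3 and 21.5 kb on day 0. The 3 further day 3 islands overlapped Taf15, 26.2 to 43.4 kb from Ccl5. The 2 further day 0 islands lay 11.9 kb from Ccl5 and 6.32 kb from Ccl4. The RefSeq body of Ccl4, at 16.1 kb, overlaps that of Ccl3.

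Ccl5 (RANTES) had 13.8 kb covered within 50 kb on day 3 and 4.4 kb on day 0. Ccl3 and Ccl4, the macrophage inflammatory proteins, had 8.4 kb each on day 3 and 11.6 kb each on day 0. Xcl1 (lymphotactin), on chromosome 1, had 5 kb on day 3 and 10.2 kb on day 0. The last 3 differences turned to an excess of day 3 with islands at least as dense as the least dense day 3 island, at 4.8, 4.8 and 5 kb. All 6 chemokines listed as made by activated T cells (Ccl1, Ccl3, Ccl4, Ccl5, Ccl9 and Xcl1) had an island within 50 kb on each day, against 41.7% of all protein-coding genes, and none in the body, against 66%. The 6 have a median body of 4.31 kb, and of genes with bodies of at most 10 kb only 6.20% carried a body island on day 3 and 3.46% on day 0. Of the 6, Ccl3, Ccl4, Ccl5 and Ccl9 lie in 1 cluster and share islands, so they do not count separately.

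**Figure D4:**
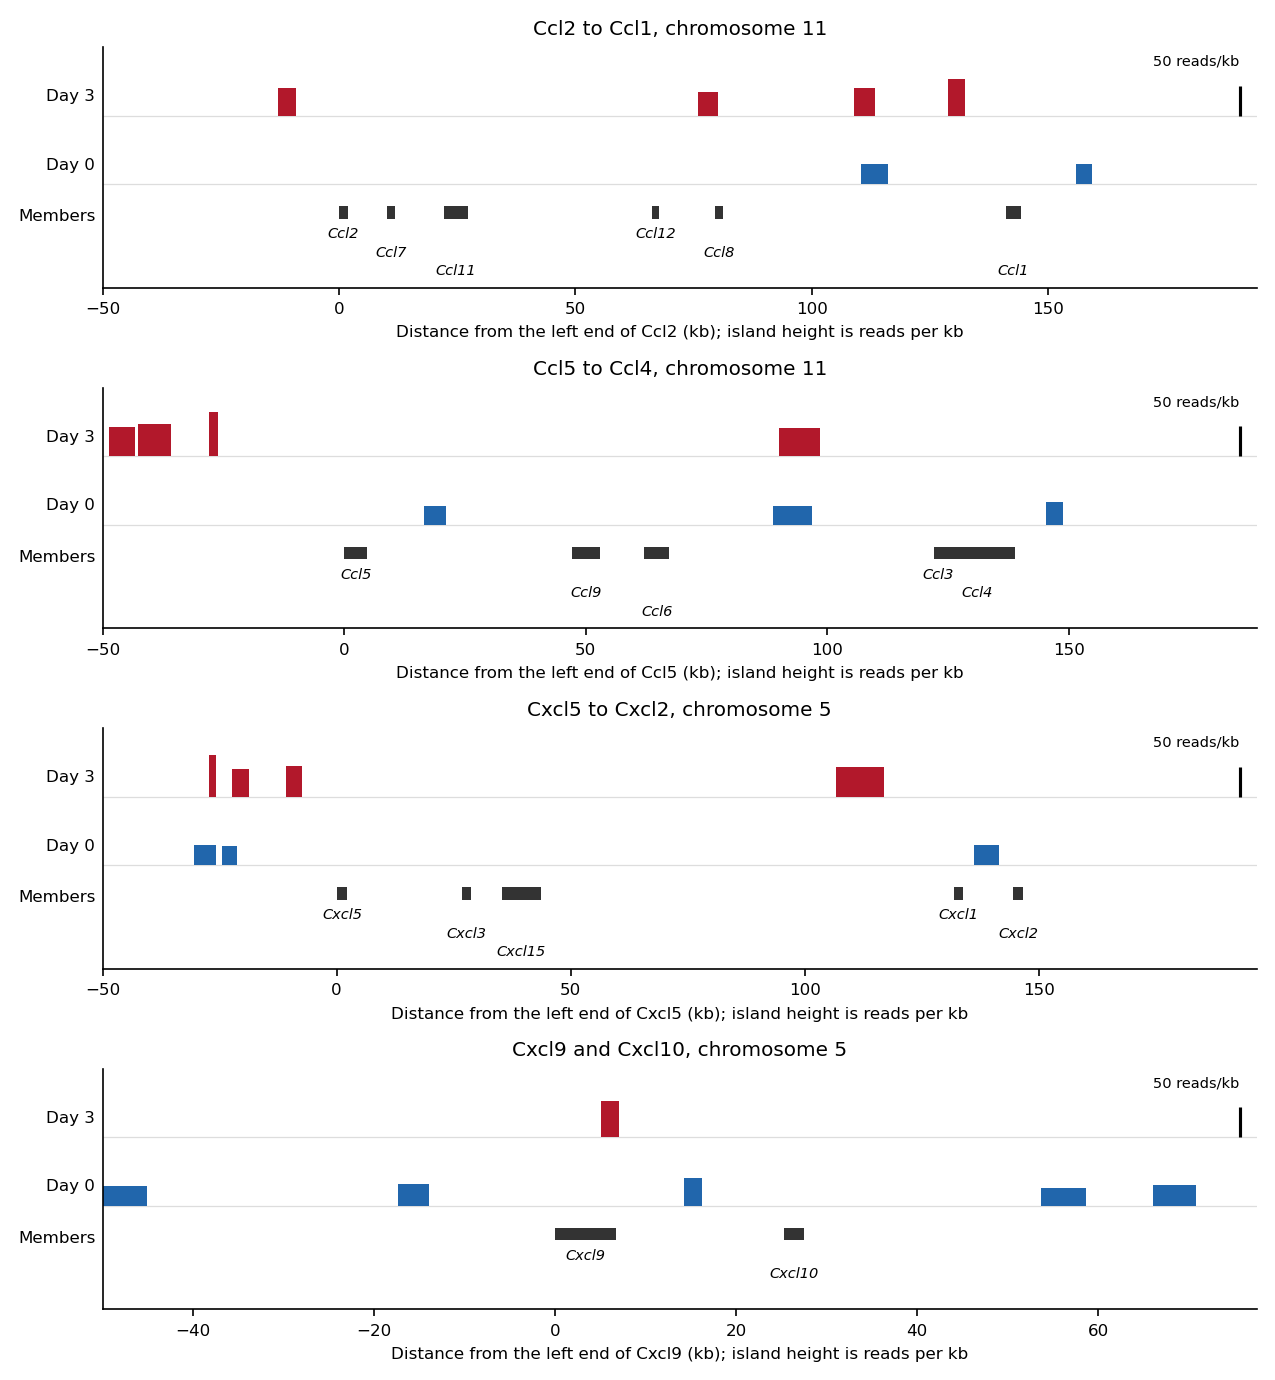
Islands of day 3 (red) and day 0 (blue) over 4 ligand clusters, with the members as black boxes and the distance from the left end of the first gene in kb on the x axis. The height of an island is its reads per kb, uncorrected for depth, and the bar shows 50 reads per kb. Islands stand mostly outside the bodies of the members, as at the shared position between Ccl6 and Ccl3, though many overlap other genes. The stretch of Cxcl9 and Cxcl10 has 1 island on day 3 and 5 on day 0.

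The CXC cluster of chromosome 5 (90759298 to 90905938) holds the neutrophil attractants Cxcl5, Cxcl3, Cxcl15, Cxcl1 and Cxcl2, most of which act on Cxcr2. No body carried an island. With flanks, 19 kb were covered on day 3 and 13.4 kb on day 0. An island of 10.2 kb with 501 reads (458 to 547), the longest at any member on either day, lay 15.045 kb upstream of Cxcl1 on day 3. On day 0 an island of 5.4 kb (181 reads, 156 to 209) stood between Cxcl1 and Cxcl2, 2.28 kb from the first. Both days had islands left of Cxcl5 that overlapped. The order of the days turned with the 19989 day 3 islands richest in reads, at 10.2 kb on day 3 and 13.4 kb on day 0. It also turned with islands of at least the median density of their list, at 1.6 kb and 4.8 kb.

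Ccl22, Cx3cl1 and Ccl17 on chromosome 8 (94745684 to 94812038) encode Ccl22 and Ccl17, the Ccr4 ligands of dendritic cells, and Cx3cl1, or fractalkine. Their stretch had 8.6 kb in 2 islands on day 3 and none on day 0. The islands lay 18.5 and 25.3 kb upstream of Ccl22 and held 279 (247 to 314) and 190 reads (164 to 219). Coverage on day 3 alone was also found in each of the 4 other selections of islands, at 2.8 to 8.6 kb. The nearest day 0 island was 113.3 kb from Ccl22.

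The ligands of chromosome 4 had no island within 50 kb on either day. Ccl19 and Ccl21 guide naive T cells and dendritic cells into lymph nodes, and Ccl27 draws T cells to skin. The nearest island to Ccl19 was 146.2 kb away on day 3, against 152.2 kb on day 0, and that to Ccl21a 128.6 kb and 134.6 kb. Ccl27a, Ccl21d, Ccl21b and Ccl27b were farther still, at 246.6 to 645.8 kb on day 3 and 160.9 to 564.5 kb on day 0. Several of these genes have near-identical copies, and the sources used here do not give the handling of reads that fit several places, so the lack of islands there is uncertain. Of the ligands that stand apart from these clusters, Ccl20, the ligand of Ccr6, had 2.17 kb covered within 50 kb on day 3 and none on day 0, and Cxcl17, a mucosal chemokine, had 5 kb and none. The eotaxin gene Ccl26 had none on day 3 and 0.353 kb on day 0, and its neighbour Ccl24 had none on either day.

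Ligands and receptors that bind each other are given side by side as a description. Ccr2 had 2.28 kb of the body covered on day 3 and none on day 0, while its ligands Ccl2, Ccl7 and Ccl12 had none in the body on either day. Ccr3 was covered on both days, while of its ligands Ccl28 was covered on day 3 and Ccl11, Ccl24 and Ccl26 had no island in the body on either day. Ccl25 was covered on day 0 and its receptor Ccr9 on neither day, and Cxcl13 and its receptor Cxcr5 differed in the same way.

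Outside the symbol rule, 36 further genes of the pathway were listed, among them Pf4 and Ppbp (platelet chemokines), G protein subunits, receptor kinases, arrestins, regulators of G protein signalling and the migration regulators Dock2 and Elmo1. Body islands were found in 10 of them on each day, 9 of them on both days, with Rgs2 on day 3 alone and Rgs3 on day 0 alone. The share over all protein-coding genes was 27.2% on day 3 and 22.8% on day 0, so 10 of 36 is near the background, and these bodies have a median of 29.5 kb. Elmo1 had 44.8 kb covered on day 3 and 16.2 kb on day 0, and Dock2, a guanine nucleotide exchange factor needed for lymphocyte migration, had 32.8 kb and 12.8 kb. Both are long (517.8 kb in Elmo1 and 557.1 kb in Dock2), and with islands of at least the median density the difference in Dock2 was -0.6 kb. With the 19989 day 3 islands richest in reads the difference in Elmo1 was 4.2 kb. Rgs1, a brake on chemokine receptor signalling in lymphocytes, had 0.504 kb or 11.4% of its body covered on day 3 and 2.73 kb or 61.6% on day 0. Gnb1 had 3.2 kb covered on day 3 and 11.2 kb on day 0, and this difference turned to 3.2 kb with islands at least as dense as the least dense day 3 island and was 0 at the median density. Pik3cg, the phosphoinositide 3-kinase downstream of G proteins, had 3.2 kb and 5.8 kb.

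The islands near members resembled their lists in density and length. On day 3, 38 islands lay within 50 kb of a member, with a median of 51.5 reads per kb (range 40 to 73.9) against 52.9 in the whole list, and a median length of 3.6 kb against 3.6 kb. On day 0 there were 32, with a median of 34.4 reads per kb (range 30.0 to 116.4) against 34.1, and a median length of 4.6 kb against 4.8 kb. Of these 32, 15 had a density below that of every day 3 island. Overlap with the other day was found in 7 of the 38 (18.4%) and 7 of the 32 (21.9%), against 14.9% and 33.6% in the whole lists. No gene of the table, of any type, was overlapped by 18 of the 38 and 12 of the 32, and 19 and 16 lay within 50 kb of more than 1 member.

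**Figure D5:**
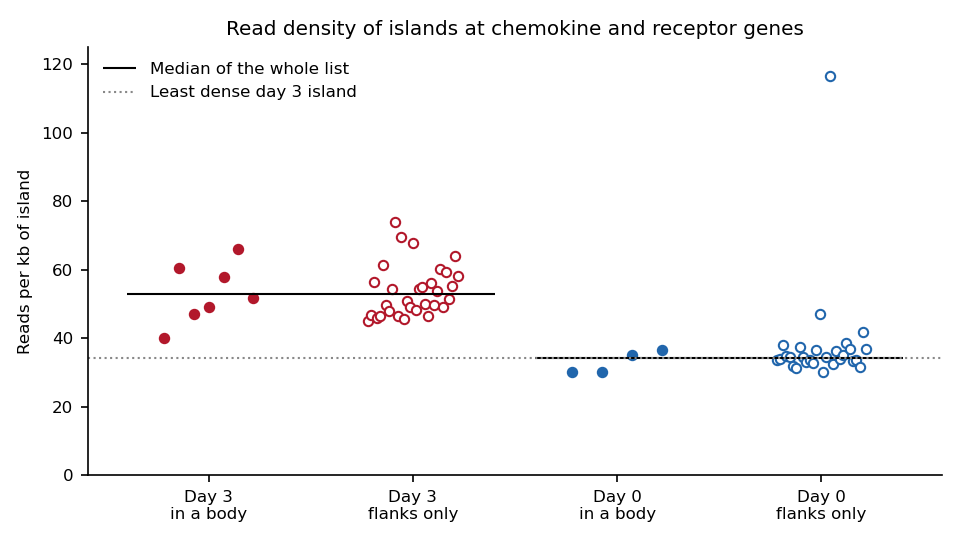
Reads per kb of each island that lies in a member's body (filled) or only in the 50 kb flanks (open), on day 3 (red, 38 islands) and day 0 (blue, 32 islands), uncorrected for depth. Black lines are the medians of the whole lists, 52.9 on day 3 and 34.1 on day 0, and the dotted line is the least dense day 3 island at 34.1. Islands in bodies do not stand apart from those in flanks, and the single point at 116.4 is the day 0 island upstream of Ccl28, whose density is uncertain.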

How the data were processed

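Of the 4 libraries in the labels, the 2 H3K9me3 ChIP libraries were analysed and the 2 input libraries were not analysed here. Per the submitters' processing notes, the authors used Bowtie2, SICER 1.1 and mm10; neither the threshold nor the gap of island calling is known here. The number beside each deposited island was read as a raw count of reads, because it is whole and follows island length. The number of mapped reads per library is unknown, and intervals (exact 95% Poisson) cover counting error only. Island borders, which fall on multiples of 200 bp, were written 1-based.

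Gene positions came from RefSeq (GRCm38.p6, same coordinates as mm10), without strand or exons, and strand came from the promoter table. Genes with a start below 3 Mb on a chromosome other than Y were taken as unplaced. A gene had an island when at least 1 bp was covered. Coverage was computed with Python 3.11.15, pandas 2.3.3 and numpy 2.4.6, and tested on simulated islands.

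Members, lists and alternatives were chosen with earlier results of these data known. Named were all members with a body island, the 10 with the largest and the 10 with the smallest difference within 50 kb (at most 3 per cluster), members with a promoter in an island and those of the T cell, homeostatic and atypical lists; others are named as neighbours in a cluster, chosen after their values were seen. No test was made. For 1 member, which the counts include, no values of its own are reported here.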

Additional observations from a re-analysis of the deposited data

How the results depend on the processing

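No paired analysis was possible because there is 1 ChIP library per day and no test. For the same reason no library could be left out. The counts moved with the selection of islands. Using only the 19989 day 3 islands richest in reads left day 3 with an island in the body of 2 members, 0 ligands and 2 promoter windows, and within 50 kb of 18 members, 13 ligands and 5 receptors. With islands of at least the median density of their list, the body counts were 3 members and 1 ligand on day 3 and 2 members and 0 ligands on day 0, and the promoter windows 3 and 0. Within 50 kb they were 21 members and 11 ligands on day 3 and 17 members and 9 ligands on day 0. With islands at least as dense as the least dense day 3 island, day 0 had 2 members, 0 ligands and 0 promoter windows with an island, and within 50 kb 17 members and 9 ligands. With islands of at least 5000 bp, the body counts were 2 members and 0 ligands on day 3 and 2 members and 0 receptors on day 0, with 2 promoter windows on day 3. Within 50 kb they were 15 members, 11 ligands and 4 receptors on day 3 and 18 members and 4 receptors on day 0. With flanks of 20 kb, 18 members, 12 ligands and 6 receptors had an island on day 3 and 11 ligands on day 0, and with flanks of 100 kb 17 receptors did on day 3 and 16 on day 0. When 5 kb had to be covered, 24 members and 5 receptors were left on day 3 and 6 receptors on day 0. Each of the other counts run stayed within 1.5 times its value, among them all those without chromosome X and the duplicated region of chromosome 4, which, like the promoter and pathway alternatives, were chosen after seeing the data.

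The difference in kb within 50 kb (day 3 minus day 0) turned in sign with that shorter day 3 list for Ccl8 (-3.4), Ccl28 (-2.8) and Cxcl3 (-1.9). It turned with the median density for Ccl8 (-3.4), Ccl28 (-1.84), Xcl1 (5) and Cxcl13 (2.8), and with the density of the least dense day 3 island for Xcl1 (5), Ccl9 (8.4), Ccl3 (4.8), Ccl4 (4.8) and Cxcl13 (2.8). In the pathway genes the body difference turned for Dock2 (-0.6) with the median density and for Gnb1 (3.2) and Tiam1 (0.6) with the density of the least dense day 3 island. Of 31 named members with a difference, 3, 4 and 5 turned in sign and 6, 9 and 4 had no difference left under these 3 selections. The cause was not tested. What limits these values is the lack of replicates, the unknown number of mapped reads and the lower density of day 0 islands.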
